A study of Mus musculus with 4 samples.

Results

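The genes described here are Hif1a, Epas1, Hif3a, Arnt, Vhl, Egln1, Egln2, Egln3, Hif1an and Vegfa, which encode the hypoxia-inducible factors (HIF), their regulators and 1 classical HIF target. They were chosen by gene symbol, and all 10 symbols were found among the 24185 gene names of the array, with 20 of its 55681 distinct probes of 60 bases. The data come from RNA immunoprecipitation (RIP), in which an antibody recovers a protein together with the RNA bound to it. Cortical and hippocampal lysate from male C57BL/6 mice aged 8 weeks was divided between beads carrying an antibody to CPEB2 (CPEB2 IgG) and beads carrying non-specific antibody (control IgG) for 3 h. CPEB2 is a cytoplasmic RNA-binding protein that controls translation and is the subject of the study. The labels name no mutation and no treatment of the mice, and both antibodies were applied to the same kind of lysate. The recovered RNA (0.2 µg) was amplified, labelled with Cy3 and hybridized to one-color arrays. Each antibody was used in 2 experiments, which gave 2 CPEB2 IgG arrays and 2 control IgG arrays.

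The sample descriptions of the CPEB2 arrays mention CPEB3 IgG in 1 place, but by their titles, the treatment protocol and the paper the antibody was against CPEB2, and they are called CPEB2 IgG here. The probe for Cpeb2 mRNA read 2410 and 1877 with CPEB2 IgG against 299 and 297 with control IgG, and this mRNA does not identify the antibody. All 4 arrays shared 1 slide, and each antibody had its own positions on it, so antibody and array position cannot be told apart. Between 67.6% and 73.5% of the probes of an array were well above background and 0 were saturated. All 5 neuronal markers examined (Rbfox3, Snap25, Syp, Tubb3 and Camk2a) were above background on all 4 arrays. The lysate held all cells of the tissue, and both antibodies of an experiment received parts of it. RNA of unselected lysate was not analysed here, so a signal does not give the share of a transcript that was bound. For each array 0.2 µg of recovered RNA was labelled. A signal therefore reflects a transcript relative to the other RNA recovered, not the total amount recovered.

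HIF is a dimer of an oxygen-regulated α subunit and the constitutive β subunit ARNT. With oxygen present, prolyl hydroxylases of the EGLN family mark the α subunits, and the von Hippel-Lindau protein (VHL), the substrate receptor of a ubiquitin ligase, then sends them for degradation. The asparaginyl hydroxylase HIF1AN blocks the contact of the α subunit with coactivators. When oxygen falls, the α subunits accumulate and genes for glycolysis, glucose uptake and vessel growth, among them Vegfa, are transcribed. Hif1a mRNA is a known CPEB2 target in other cells, and the CPEB proteins bind the cytoplasmic polyadenylation element (CPE) in the 3′ part of mRNAs. The comparison asks which of these mRNAs made up more of the recovered RNA with CPEB2 IgG than with control IgG.

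A probe measures only the stretch of transcript it pairs with. The following 30-base stretches, in the sense of the mRNA, were read from the probes of the array design and are shown for the genes on which the results turn. Capitals mark the consensus CPE letters TTTTAT or the polyadenylation signal letters AATAAA, and a stretch in lower case throughout is the middle of a probe without either.
Hif1a A_51_P387608: aattgttaagcctggatcatgaagcgttga
Epas1 A_55_P2077448: agtgttctgaaaTTTTATaagatttccccc
Arnt A_55_P2100895: cttaactgtggcaaaaataatgacatgtag
Arnt A_55_P2100899: ttgctgaagaaacgttatagaagaaattaa
Vhl A_66_P106593: cctttttagtacAATAAAcggtgctaattg
Egln1 A_51_P186899: ttacaagaggaaacaagccacaggagaggg
Egln2 A_55_P1960924: tgccagccaagaAATAAAagtttacctcag
Egln3 A_55_P1960916: ggttcgcaaagaAATAAAgttggtgacaga
Vegfa A_52_P638895: cactagcttgtcctgagaagatatttaatt
Vegfa A_52_P249424: agtaccccgacgagatagagtacatcttca
The letters TTTTAT were found on the mRNA strand of 1 of the 20 probes, that of Epas1, against 3.71% of the 41138 probes tested, and TTTTAAT in 0 of the 20 against 0.899%. On the opposite strand TTTTAT stood in 5.37% of the probes tested. AATAAA was held by 3 of the 20 probes, those of Vhl, Egln2 and Egln3 shown above, against 10.9% of all probes tested and 3.77% on the opposite strand. A probe covers a small part of an mRNA, so these matches describe the 60 bases measured and not the transcript.

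With CPEB2 IgG, 5 of the 20 probes gave more signal than with control IgG in the limma test at an adjusted p under 0.05. They belonged to Arnt, the shared β subunit, to Egln1 and Vhl, which act in the oxygen-dependent degradation of HIF, and to Vegfa, the vascular growth factor, at both of its probes. Their increases ranged from 2.70-fold for Vhl to 9.35-fold for Arnt. The 3 α subunit genes, Egln2, Egln3 and Hif1an had 0 probes called. Both Egln2 probes read lower with CPEB2 IgG on every array than with control IgG and missed the threshold.

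All 20 probes passed the filter on low signal, which asked for a signal well above background on at least 2 arrays. Of all 41138 probes tested, 12.7% were called higher and 14.8% lower, against 5 (25%) and 0 of the 20. These shares stand for 5228 and 6095 probes, and median centring turned them into 7500 higher and 5594 lower, where 6 and 0 of the 20 were called. Without adjustment, 6 of the 20 had p under 0.05 in limma in the higher direction and 2 in the lower direction. Over all 41138 probes tested, 7241 and 9731 did so. Both CPEB2 IgG arrays lay above both control IgG arrays after scaling at 8 of the 20 probes (40%), against 26.4% of all probes tested. Both lay below at 5 (25%), against 39.2% of all. The median log2 fold change was -0.03 over the 20 probes and -0.20 over all probes tested. An exact permutation test of 2 arrays against 2 cannot go below p = 0.333 (two-sided), so single probes are given with limma only, whose estimate of the spread draws on all probes. Probes of 1 gene share its mRNA and are not replicates.

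**Figure D1:**
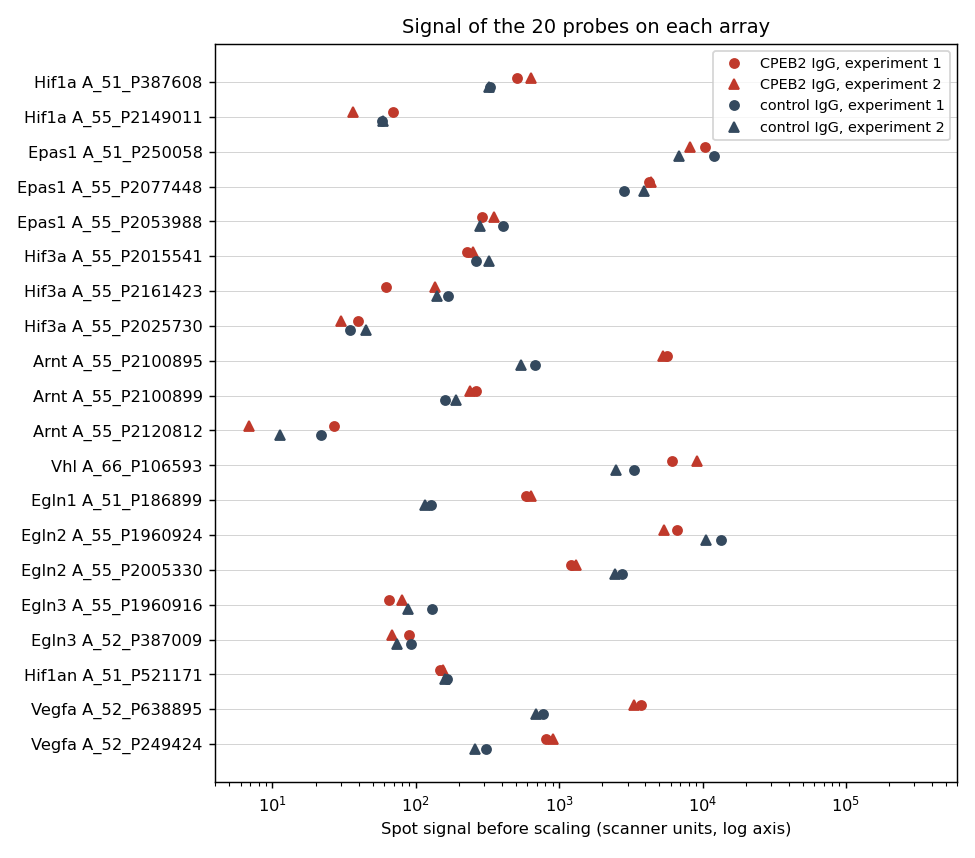
Spot signal before scaling, in scanner units on a log axis, of each of the 20 probes. Points stand for arrays, red for CPEB2 IgG and dark for control IgG, circles for experiment 1 and triangles for experiment 2. The red points of Arnt A_55_P2100895 (5681 and 5282) lie far to the right of its dark points (677 and 546), whereas those of Epas1 A_51_P250058 lie among the dark ones.

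**Figure D2:**
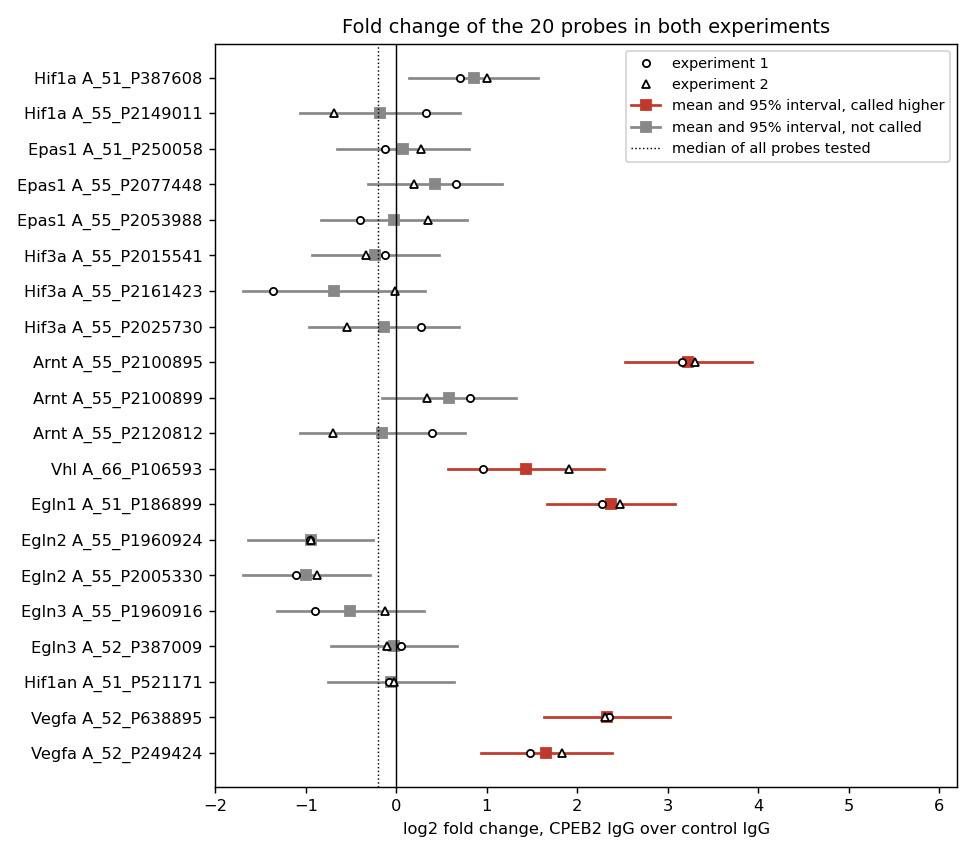
log2 fold change of CPEB2 IgG over control IgG for the 20 probes, in experiment 1 (circles), in experiment 2 (triangles) and as the mean (squares) with its 95% interval from limma. Red marks the 5 probes called higher, the solid line is 0 and the dotted line is the median of all probes tested (-0.20).

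Hif1a, which encodes the α subunit HIF-1α, was measured by 2 probes on chromosome 12. The probe on the RefSeq mRNA (A_51_P387608, base 3512 of NM_010431, chr12:75047269-75047329, plus strand, mm9) read 507 and 633 with CPEB2 IgG against 329 and 322 with control IgG. Both CPEB2 IgG arrays lay above both control IgG arrays. The log2 fold change was 0.71 in experiment 1 and 1.00 in experiment 2, with a mean of 0.85 (95% interval 0.14 to 1.57), which is 1.81-fold. Its adjusted p was 0.0792 in limma, so the increase was not called. The call depended on the processing, with an adjusted p of 0.0280 after median centring and 0.449 after centring within groups of probes of equal GC content, where the log2 fold change was 0.25. The other probe (A_55_P2149011, chr12:75033965-75034024) is annotated to a cDNA clone of Hif1a and was not checked against the RefSeq mRNA. It read 69.2 and 36.3 with CPEB2 IgG against 58.3 and 59.3 with control IgG, so that the arrays overlapped. Its mean log2 fold change was -0.18 (95% interval -1.06 to 0.71), with an adjusted p of 0.745.

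Epas1 encodes HIF-2α, the α subunit known from endothelial and glial cells. Of its 3 probes, all on NM_010137, the one nearest the 3′ end (A_51_P250058, base 5216) read 10448 and 8162 with CPEB2 IgG against 12066 and 6858 with control IgG. The arrays overlapped, and the mean log2 fold change was 0.08 (95% interval -0.65 to 0.80, adjusted p = 0.872 in limma). The probe that holds TTTTAT (A_55_P2077448, base 3279, chr17:87230678-87230737) read 4211 and 4396 with CPEB2 IgG against 2828 and 3904 with control IgG. It was higher on both CPEB2 IgG arrays, by 0.66 in experiment 1 and 0.19 in experiment 2 on the log2 scale, and was not called (mean 0.43, 95% interval -0.31 to 1.17, adjusted p = 0.333 in limma). A neighbouring probe (A_55_P2053988, base 3188) gave 291 and 350 against 407 and 279, with a mean log2 fold change of -0.03 (95% interval -0.83 to 0.78). The 3 probes on this transcript had means between -0.03 and 0.43, and none passed the test.

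Hif3a encodes HIF-3α, some forms of which inhibit the other α subunits. Its 3 probes lie on NM_016868 on the minus strand of chromosome 7. The probe at base 6374 (A_55_P2015541) read 228 and 252 with CPEB2 IgG against 263 and 324 with control IgG, a mean log2 fold change of -0.23 (adjusted p = 0.584 in limma), and the arrays overlapped once scaled. At base 534 (A_55_P2161423) the signals were 61.7 and 136 against 168 and 140. This difference was made by experiment 1, with a log2 fold change of -1.36 there and -0.02 in experiment 2 (mean -0.69, adjusted p = 0.255 in limma). At base 2418 (A_55_P2025730) the arrays read 39.61 and 30.03 against 34.7 and 44.6, which overlap. All 3 Hif3a probes had a mean below 0, between -0.69 and -0.14, and none was called.

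Arnt encodes ARNT (HIF-1β), the partner of every α subunit and of the dioxin receptor. The probe at base 4288 of NM_001037737 (A_55_P2100895, chr3:95301081-95301140, plus strand, mm9) read 5681 and 5282 with CPEB2 IgG against 677 and 546 with control IgG. The groups were far apart, with log2 fold changes of 3.15 and 3.30 in the 2 experiments. The mean was 3.23 (95% interval 2.52 to 3.93, adjusted p = 0.00679 in limma), and 99.5% of all probes tested had a lower value. A second probe on the same mRNA (A_55_P2100899, base 2641, chr3:95299434-95299493) read 265 and 238 with CPEB2 IgG against 159 and 191 with control IgG. It was also higher on both CPEB2 IgG arrays, but by a mean of 0.58 (95% interval -0.16 to 1.32, adjusted p = 0.204 in limma). The intervals of these 2 probes do not overlap, although both are annotated to 1 transcript, and the difference between them was not tested. The third probe (A_55_P2120812, base 550 of ENSMUST00000107160) read 27.002 and 6.819 against 21.8 and 11.3 and was above background only on the arrays of experiment 1. Its mean log2 fold change was -0.16 (95% interval -1.07 to 0.76). The call for Arnt therefore rests on the probe at base 4288.

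Vhl, the receptor of the ligase that removes hydroxylated α subunits, was measured by 1 probe (A_66_P106593, base 2668 of NM_009507, chr6:113581566-113581625, plus strand, mm9). Its signal was 6110 and 9110 with CPEB2 IgG against 3331 and 2472 with control IgG, without overlap. The log2 fold change was 0.96 in experiment 1 and 1.90 in experiment 2, and the mean was 1.43 (95% interval 0.57 to 2.29, adjusted p = 0.0333 in limma). This was the weakest of the 5 calls. Fits with 1 array left out dropped the experiment block and left a lone array in 1 group, so only their effect sizes are given. The log2 fold change was 1.72 without CPEB2 IgG replicate 1 and 1.14 without CPEB2 IgG replicate 2. It was 1.62 without control IgG replicate 1 and 1.25 without control IgG replicate 2. Centring within GC content gave 1.16 (adjusted p = 0.0629).

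The 3 prolyl hydroxylase genes did not share 1 direction. Egln1 encodes PHD2, the main HIF prolyl hydroxylase of most cells. Its only probe (A_51_P186899, base 2085 of NM_053207) read 582 and 633 with CPEB2 IgG against 128 and 116 with control IgG. The array annotation places it at chr8:127432487-127432499, a span of 13 bases that cannot hold the whole probe. Each CPEB2 IgG array was several times above the control IgG array of its experiment, with log2 fold changes of 2.27 and 2.47. The mean was 2.37 (95% interval 1.67 to 3.08, adjusted p = 0.00720 in limma), or 5.18-fold.

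Egln2 encodes PHD1. The probe at base 2046 of NM_053208, which holds AATAAA (A_55_P1960924, chr7:27943678-27943737, minus strand, mm9), read 6582 and 5398 with CPEB2 IgG against 13533 and 10536 with control IgG. The probe at base 1704 (A_55_P2005330) read 1205 and 1300 against 2751 and 2433. At both probes the CPEB2 IgG arrays lay below the control IgG arrays in both experiments, and the log2 fold changes were close, with means of -0.95 (95% interval -1.64 to -0.25) and -0.99 (95% interval -1.70 to -0.29). The adjusted p was 0.0563 and 0.0518 in limma, just outside the threshold. Without the experiment as a block it was 0.0497 and 0.0308. After median centring the values were -0.72 and -0.77, with adjusted p of 0.123 and 0.106, so that the call depended on the scaling. Egln1 was called higher and both Egln2 probes had intervals below 0.

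Egln3 encodes PHD3, a hydroxylase that is itself induced by HIF. Its signals were low, 65.1 and 80.1 with CPEB2 IgG against 129 and 88.6 with control IgG at base 1332 of NM_028133 (A_55_P1960916). At base 1631 (A_52_P387009) they were 89.9 and 67.9 against 91.9 and 74.3. The mean log2 fold changes were -0.51 (95% interval -1.32 to 0.30) and -0.03 (95% interval -0.73 to 0.67), and neither was called. Hif1an encodes the asparaginyl hydroxylase FIH. Its probe (A_51_P521171, base 5582 of NM_176958) read 147 and 155 with CPEB2 IgG against 165 and 160 with control IgG. The mean was -0.06 (95% interval -0.75 to 0.64, adjusted p = 0.898 in limma).

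Vegfa, the HIF target that drives vessel growth, was the only gene of the 10 called at more than 1 probe. The probe at base 3026 of NM_001025250 (A_52_P638895, chr17:46154387-46154446, minus strand, mm9), the mean of 2 spots, read 3718 and 3328 with CPEB2 IgG against 775 and 686 with control IgG. The experiments gave nearly the same log2 fold change, 2.34 and 2.30. The mean was 2.32 (95% interval 1.63 to 3.02, adjusted p = 0.00727 in limma). The probe at base 1193 of NM_001025257 (A_52_P249424, chr17:46162376-46162435) read 808 and 904 against 307 and 258. These arrays did not overlap either, with a mean of 1.66 (95% interval 0.94 to 2.38, adjusted p = 0.0141 in limma). Without control IgG replicate 2 it was 1.56 with an adjusted p of 0.0515.

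The study listed transcripts enriched over 1.5-fold with a raw signal over 1000, and then those with a CPE in the 3′ UTR. Here the thresholds were read as a mean fold change over both experiments and a raw signal on either CPEB2 IgG array, and the CPE was not assessed. So read, both were met by 3 of the 20 probes (15%) and by 10.4% of all probes tested. They were Arnt A_55_P2100895, Vhl and Vegfa A_52_P638895. Egln1, Hif1a A_51_P387608 and Vegfa A_52_P249424 had the fold change but not the signal, and the count was 6 with a raw signal above 500. It was 3 with a raw signal above 2000 and also 3 with the fold change required in each experiment. The shares of all probes at these other settings are not given, so these counts are not set against the array.

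The base composition of the probes moved with the fold change across the whole array. The Pearson correlation between the number of G and C bases in a probe and its log2 fold change was -0.32 across 41138 probes, which are not independent. The median log2 fold change was 0.16 over probes with up to 24 such bases and -0.28 over those with 25 to 27. Among the probes called higher, that of Arnt has 21 G and C bases and that of Vhl 22, whereas Egln1 and Vegfa A_52_P638895 have 25 and Vegfa A_52_P249424 has 32. After each experiment's fold changes were centred within probes of equal GC content, the values were 2.62 for Arnt, 2.35 for Egln1, and 2.30 and 1.95 for Vegfa, all 4 with adjusted p under 0.05 in limma. Vhl went from 1.43 to 1.16 (adjusted p = 0.0629 in limma), and to 1.06 (adjusted p = 0.0618) when each array was centred by GC content, and was no longer called. Hif1a A_51_P387608, with 21 G and C bases, went from 0.85 to 0.25, and to 0.06 with the arrays centred. Epas1 A_55_P2053988 and Arnt A_55_P2120812, also with 21, went from -0.03 to -0.63 and from -0.16 to -0.76, and with the arrays centred to -0.82 (adjusted p = 0.0724 in limma) and -0.95. Egln2, with 29 and 33, went from -0.95 and -0.99 to -0.72 and -0.67.

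**Figure D3:**
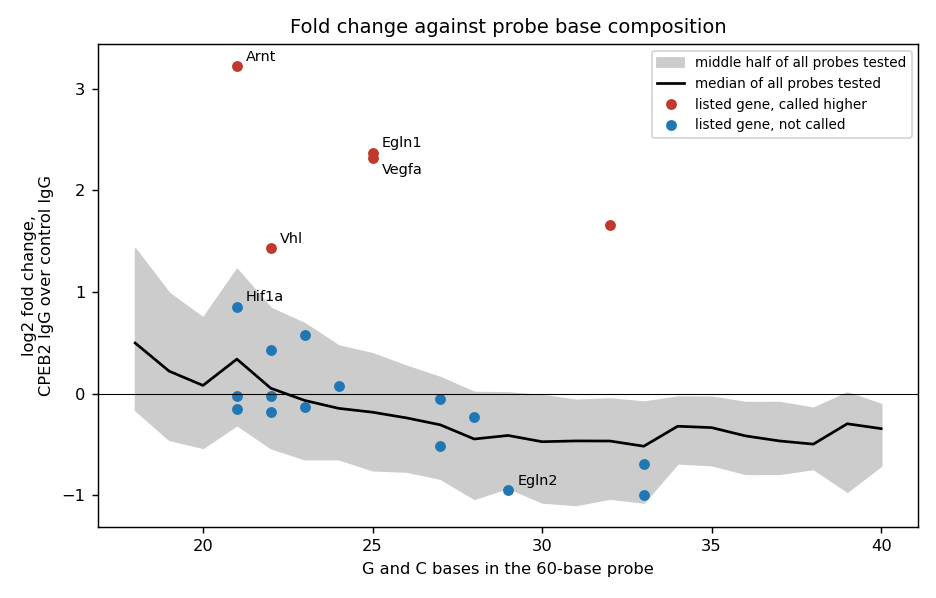
log2 fold change of CPEB2 IgG over control IgG against the number of G and C bases in the probe. The black line is the median and the grey band the range from the lower to the upper quartile of all probes tested, and points are the 20 probes, red where called higher. The line falls from 0.34 at 21 bases to -0.52 at 33 bases, and the red points lie above the band, whereas Hif1a lies inside it.

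The other genes of the pathway were counted from the same fit, each by its brightest probe. Among the 19698 genes tested that way, 17.9% were called higher and 16.3% lower, and the median log2 fold change was -0.11. Of 37 further HIF target genes, 34 were tested, 15 were called higher (44.1%) and 8 lower (23.5%), with a median of 0.71. The 15 became 9 without control IgG replicate 1, 10 without CPEB2 IgG replicate 2 or control IgG replicate 2, and 18 with median centring, normexp or an intensity trend. Over all 41138 probes, median centring, normexp and an intensity trend called 7500, 6884 and 7223 higher, against 5228 in the main fit. The totals over all probes with 1 array left out are given in the closing section. Among the HIF targets the largest increases were those of Edn1, which encodes the vasoconstrictor endothelin-1, the glucose transporter gene Slc2a1 and Ddit4, an inhibitor of mTORC1 signalling. Edn1 read 184 and 275 with CPEB2 IgG against 24.5 and 16.3 with control IgG, a log2 fold change of 3.54. Slc2a1 read 5892 and 6042 against 837 and 566, a log2 fold change of 3.17. Ddit4 read 84441 and 97886 against 12856 and 14483, a log2 fold change of 2.79. In each of these 3 genes the CPEB2 IgG arrays stood apart from the control IgG arrays, which largely follows from naming the largest increases.

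All 8 HIF targets called lower encode glycolytic enzymes, a split seen after their values were known. They were Pfkl, Aldoa, Aldoc, Tpi1, Pgk1, Pgam1, Eno1 and Ldha, with log2 fold changes from -3.23 to -1.33. Pgk1, phosphoglycerate kinase, read 3725 and 2890 with CPEB2 IgG against 29858 and 34249 with control IgG, a log2 fold change of -3.23. Aldoa (-2.96) and Aldoc (-2.91), the aldolase genes, followed. Aldoc is also on the list of astrocyte markers, and the glycolytic Gapdh, which the study used as reference in RIP with RT-qPCR, was lower at all 7 of its probes. Hexokinase 2 (Hk2), which starts glycolysis, was called higher, with a log2 fold change of 1.68. The direction thus differed between the glycolytic enzymes named here.

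The list of VHL complex members and HIF modifiers had 24 genes on the array, all tested, with 7 called higher (29.2%), 5 lower (20.8%) and a median of 0.12. Siah2, a ubiquitin ligase that acts on the prolyl hydroxylases, read 4054 and 6738 with CPEB2 IgG against 502 and 498 with control IgG, a log2 fold change of 3.44. Senp1, a SUMO protease, and Sirt1, a deacetylase, were higher by 3.35 and 3.16 on the log2 scale. Among the partners of VHL in its ligase, Tceb2 (elongin B) was lower by a log2 fold change of -1.69 and Rbx1 by -1.28. Tceb1 (elongin C), at 0.62, and Cul2, at -0.17, were not called, so that Vhl was the only subunit of the ligase among those measured that was called higher. The largest decreases on this list were those of the deubiquitinase gene Usp20 (-2.23), the chaperone gene Hsp90aa1 (-1.82) and Cops5 (-1.81), a subunit of the COP9 signalosome.

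Relatives of the HIF subunits with the same bHLH-PAS domains were counted in 10 tested genes, of which 4 were called higher (40%) and 1 lower (10%), with a median of 0.94. The 4 became 2 after GC centring and 6 after median centring, where 3987 and 7500 of all probes were called higher, against 5228. Npas3 (2.97) and the activity-induced Npas4 (2.46) had the largest log2 fold changes, followed by Clock (1.40). Npas1 was the one called lower (-1.82). Arnt2, the paralog of Arnt that is abundant in neurons, read 370 and 537 with CPEB2 IgG against 599 and 625 with control IgG. With a log2 fold change of -0.40 it was not called (adjusted p = 0.352 in limma), and neither were 2 of the 3 Arnt probes. The contrast is with the Arnt probe at base 4288 only, and the difference between both genes was not tested. Of 9 tested VEGF family and receptor genes, 1 was called higher (11.1%) and 0 lower in limma. It was Vegfc, a lymphatic growth factor, with a log2 fold change of 1.34. The main Vegfa receptor gene Kdr was at -0.96 (adjusted p = 0.0725 in limma) and Flt1 at -0.11, and neither was called.

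**Figure D4:**
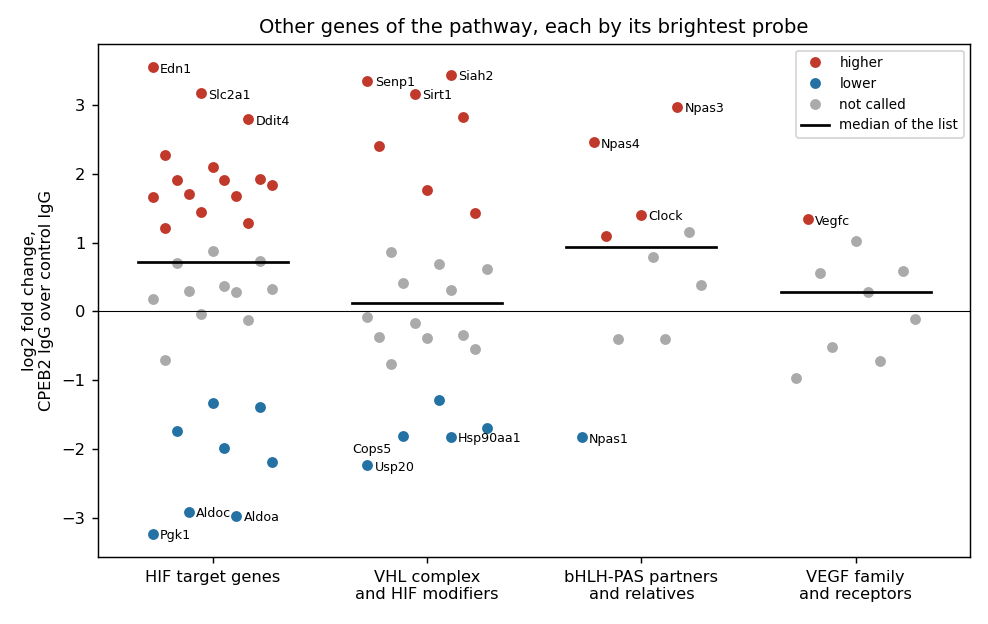
log2 fold change of CPEB2 IgG over control IgG of the other genes of the pathway, each by its brightest probe, in 4 lists. Red points were called higher, blue points lower and grey points neither, and the bar is the median of the list. The HIF targets called higher lie between 1.21 and 3.54, and those called lower, all glycolytic enzymes, between -3.23 and -1.33. The 11 HIF targets not called fill the range between them, from -0.71 to 0.88.

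Endothelial and glial markers were set beside these values, since Epas1, Kdr and Edn1 are expressed there. Of 6 endothelial markers, 4 were tested, with 1 called higher (Cdh5, log2 fold change 1.57) and 0 lower, while Tie1 and Tek did not pass the filter. The summed raw signal of the 4 was 1419 and 1420 with CPEB2 IgG against 1468 and 1377 with control IgG, which overlap. Astrocyte markers (5 tested) had 1 called higher and 2 lower, microglial markers (5 tested) 1 higher and 2 lower, oligodendrocyte markers (5 tested) 0 higher and 1 lower, and neuronal markers (5 tested) 0 higher and 1 lower. The summed signal of the astrocyte markers was 61738 and 52006 with CPEB2 IgG against 244412 and 198136 with control IgG, most of it from Aldoc on the control IgG arrays. That of the microglial markers was 7579 and 6603 against 12340 and 10389, and that of the neuronal markers 71965 and 67002 against 94131 and 101187. These 3 sums were lower on both CPEB2 IgG arrays, whereas the oligodendrocyte sum, at 54935 and 55004 against 64653 and 50858, overlapped. The sums did not hold for each marker. Among the neuronal markers Tubb3 was called lower (log2 fold change -1.50), while Rbfox3 and Camk2a overlapped between the antibodies. Among the microglial markers P2ry12 was called higher (2.30), and Aif1 (-2.64) and Csf1r (-1.35) lower. The astrocyte sum was dominated by Aldoc, which read 30139 and 22718 with CPEB2 IgG against 225494 and 183759 with control IgG. Slc1a3, the 1 astrocyte marker called higher, went the other way, at 28729 and 26888.5 against 3302 and 2133. The astrocyte markers thus shared no direction. The part of these cell types in the values of the 10 genes was not tested.

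The genes whose pattern over the 4 scaled arrays was nearest that of Hif1a A_51_P387608 were Arhgef4, Naa35 and Pgap3. Their root mean square distances on the log2 scale, after each gene was centred on its own mean, were 0.0154, 0.0161 and 0.0185. With 4 arrays such closeness is common, and 320 of the 19697 other genes lay within 0.1.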

How the data were processed

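The authors deposited the output of Agilent Feature Extraction 10.5.1.1 for each array, which holds spot intensities corrected for background by that software and not yet scaled between arrays. No normalization is given for these arrays in the sources used here. Gene names and mm9 coordinates are those of the array annotation, and exons or UTRs were not assigned. Control spots were left out, as were those the software called non-uniform or outliers of their population, spots of 1 probe were averaged, and 66 probes without a value on an array were dropped. Signals were put on the log2 scale and each array's 75th percentile subtracted. The 41138 probes well above background on at least 2 arrays were fitted with limma 3.58.1 in R 4.3.3, with the experiment as a block, Benjamini-Hochberg adjustment over all of them, a threshold of 0.05 and two-sided tests. The block follows from the methods, since each lysate was divided between the antibodies. Over the probes, the deviations of the arrays of 1 experiment from their group means correlated at 0.206. With 2 arrays per antibody this is a single value and cannot test the pairing. The labels do not say whether the experiments used separate animals, so the p-values measure the spread between these samples. The number of arrays limits the precision.

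The genes and lists were chosen with earlier results of these data known, and the lists are described by counts and medians with no set test. Named from each list were the 3 genes called with the largest change in each direction, and for Hif1a the 3 nearest genes. Hk2, the lower glycolytic genes, the subunits of the VHL ligase, Arnt2, Kdr, Flt1, Cdh5, Slc1a3 and the single neuronal and microglial markers with values fall outside that rule. They were named after their values were seen. Alternatives were quantile normalization, median centring, no scaling, scaling to another set of probes or to spike-ins, normexp background correction (offset 50), marked spots kept, no block, an intensity trend, other filters, other ways to combine probes, centring within GC content and leaving out arrays or experiments. Centring each array by GC content was chosen after seeing the data. Figures were drawn with matplotlib 3.10.9 in Python 3.11.15.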

Additional observations from a re-analysis of the deposited data

How the results depend on the processing

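The probes called higher for Arnt (A_55_P2100895), Egln1 and Vegfa (A_52_P638895) had log2 fold changes of 2.43 to 3.45, 1.74 to 2.60 and 2.15 to 2.55 over the alternatives. They were called in every fit except the one without a filter on dim probes, where limma called 0 of 55615 probes (smallest adjusted p 0.0961, 16093 at an unadjusted p under 0.05), so that the counts of calls among the 20 probes and in the 4 lists were 0 there. Median centring gave 7500 probes called higher and 5594 lower against 5228 and 6095 with 75th percentile scaling, moved the median of all probes by 0.23 (log2), and quantile normalization, spike-in scaling, normexp and the 75th percentile over probes detected on all arrays moved it by 0.16, 0.12, 0.13 and -0.11. The 2 Egln2 probes, and Egln2 as the 1 gene, were called lower with quantile normalization, no scaling, the percentile of the probes detected on all arrays, normexp, an intensity trend and the filter for detection on all 4 arrays. In that order, these fits called 6146, 6924, 6652, 7623, 8671 and 7515 of all probes lower, against 6095 in the main fit. The same count of 2 probes was called without the replicate block (adjusted p of 0.0497 and 0.0308), and the block changed no other call of the 20 probes. With 1 probe per gene, and also with the mean of the probes, 1 of the 10 genes was called lower. Of all 19698 genes, 4020 and 4011 were called lower in these 2 fits. Hif1a A_51_P387608 was called higher in 5 alternatives (median centring, normexp, intensity trend, detection on all arrays, 1 probe per gene) and kept a positive value in all, between 0.06 and 1.08. Leaving out 1 array at a time, in fits without the block that take the lone array of a group to vary like the other group, left 3 to 5 probes called higher and 0 lower, with 3 or 4 genes higher at the brightest probe. Over all 41138 probes, the same fits called 5010 higher and 6332 lower without CPEB2 IgG replicate 1, and 2741 to 2820 higher and 2542 to 2829 lower in the other 3. It left 9 to 15 HIF targets higher, 2 to 3 bHLH-PAS genes higher, and 0 to 1 VEGF genes in either direction. The 3 probes and the 9 HIF targets were those without control IgG replicate 2 and without control IgG replicate 1. A slide block was not run, since all 4 arrays share 1 slide. A raw signal above 500 let 6 probes pass the study's thresholds, and the share of all probes at that signal is not given.

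VEGF family genes called higher were 2 with median centring, normexp, detection on all arrays and the mean of the probes, and 1 was called lower with quantile normalization, normexp, an intensity trend, detection on all arrays and 1 probe per gene. Centring by GC content, of fold changes or of arrays, left 2 bHLH-PAS genes called higher, while median centring, normexp, an intensity trend, detection on all arrays and the mean of the probes gave 6, and quantile normalization and 1 probe per gene 5. Calls over all features moved too, from 5228 higher and 6095 lower in the main fit. They were 7500 and 5594 with median centring, 6884 and 7623 with normexp, and 7223 and 8671 with an intensity trend. Quantile normalization gave 6287 and 6146, and detection on all arrays 6346 and 7515 of 35366. Of 19698 genes, 1 probe per gene gave 4174 and 4020, and the mean of the probes 3687 and 4011. GC centring gave 3987 and 5461 for fold changes, and 4067 and 6106 for arrays.

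Signs changed only at probes without a call, for which the cause was not tested. With quantile normalization, median centring and normexp, Hif1a A_55_P2149011 was at 0.068, 0.049 and 0.077, Epas1 A_55_P2053988 at 0.0086, 0.20 and 0.0048, Hif3a A_55_P2025730 at 0.11, 0.091 and 0.019, Arnt A_55_P2120812 at 0.16, 0.071 and 0.13 and Egln3 A_52_P387009 at 0.19, 0.20 and 0.014. Spike-in scaling gave 0.098 for both Epas1 A_55_P2053988 and Egln3 A_52_P387009 and 0.067 for Hif1an. Hif1an was at 0.090 with quantile normalization, 0.17 with median centring, and 0.057 and 0.099 with both GC corrections, which put Hif3a A_55_P2015541 at 0.038 and 0.086. Epas1 A_51_P250058 was at -0.033 with the percentile of the probes detected on all arrays and -0.0099 with fold changes centred by GC content. With 1 array left out, Epas1 A_51_P250058 fell below 0 in 2 fits (-0.10 and -0.30), and values above 0 were 0.29 for Hif1a A_55_P2149011, 0.11 and 0.22 for Epas1 A_55_P2053988, 0.063 and 0.075 for Hif3a A_55_P2025730, 0.84 and 0.29 for Arnt A_55_P2120812 and 0.18 and 0.097 for Egln3 A_52_P387009.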
